A study of Mus musculus with 36 samples.

Results

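The 8 genes described here encode core components of the Ras and ERK signalling pathway: Nras, Rras2, Sos1, Sos2, Rasa2, Shoc2, Ptpn11 and Mapk3. They were followed through all Ago2-bound peaks whose target gene, in the deposited annotation, is one of the 8, which gives 13 of the 7730 peaks measured. The peaks come from mouse colonic tumours profiled by HEAP, in which a Halo-tagged Ago2 is pulled down after UV crosslinking and the RNA fragments bound to it are sequenced (a form of CLIP-seq). The study asked, per its title, which mRNAs are miRNA targets in such tumours with and without oncogenic K-Ras. The 6 G12D tumours carried Halo-Ago2/+, Villin-CreER/+, Apc(fl/fl) and K-Ras-G12D/+, and the 6 WT tumours carried the first 3 of these without the K-Ras-G12D allele, so WT names the K-ras allele only and both groups carried the floxed Apc alleles. All mice were C57BL/6 and received a 4-hydroxytamoxifen enema (5 mg/ml) when 8 to 12 weeks old, which started tumour formation. The Villin promoter directs the Cre to gut epithelium, and whole tumour lawns were cut out or scraped from the colon when the animals were moribund, so that other cells of the tumour may be included, and age at sampling is not given. Replicates 1 to 3 of each genotype are batch 1 and replicates 4 to 6 are batch 2, per the labels.

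Ras proteins are small GTPases that signal when loaded with GTP. Sos1 and Sos2 load them, the GTPase-activating protein Rasa2 switches them off, the phosphatase Ptpn11 (SHP2) promotes their loading below receptor tyrosine kinases, and Shoc2 is a scaffold that helps activate the Raf kinases, which lead to the kinase ERK1, encoded by Mapk3. A miRNA guides Ago2 to a transcript mainly through its seed, bases 2 to 8, which pairs with a site most often in the 3' UTR and lowers the output of that transcript; let-7 is the miRNA family best known for targeting Ras genes.

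Of the 13 peaks, 10 lie in 3' UTRs (76.9%, against 49.6% of the 7585 annotated peaks) and 3 in other exons. All 13 hold at least 1 annotated seed site, against 88.6% of all annotated peaks, and 11 hold a site of 7 or 8 bases (84.6%, against 76.0%). The sites belong to 24 seed families, of which 9 occur on 2 or more of the peaks. The most abundant Ago2-bound miRNA of each of these 9 families is shown, since its seed is what the annotated sites match. The sequences are the mature miRNAs of RefSeq (GRCm38.p6), 5' to 3', with the seed in capitals.
mmu-miR-16-5p: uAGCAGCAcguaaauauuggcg
mmu-miR-103-3p: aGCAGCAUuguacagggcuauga
mmu-miR-148a-3p: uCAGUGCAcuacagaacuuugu
mmu-miR-301a-3p: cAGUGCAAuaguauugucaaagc
mmu-miR-19b-3p: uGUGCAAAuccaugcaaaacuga
mmu-let-7i-5p: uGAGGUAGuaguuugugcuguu
mmu-miR-196b-5p: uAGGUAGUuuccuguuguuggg
mmu-miR-20a-5p: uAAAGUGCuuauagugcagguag
mmu-miR-200c-3p: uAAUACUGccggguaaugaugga
The seeds of miR-16 and miR-103 are the same sequence shifted by 1 base, as are those of miR-148a and miR-301a, of miR-301a and miR-19b, and of let-7i and miR-196b. A single stretch of RNA can therefore be annotated for several families, and the 9 families are fewer than 9 independent kinds of site.

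The miR-15/miR-16 family had the most sites together with miR-103/miR-107, with 4 of the 13 peaks each (30.8%, against 8.46% and 8.52% of all annotated peaks). For miR-15/miR-16 these were 7-base sites on Nras peak 1, Mapk3 peak 2 and Shoc2, and a 6-base site on Mapk3 peak 1. All 4 miR-103/miR-107 sites were 6-base sites, and 3 of them fell on peaks that also carry a miR-15/miR-16 site. The miR-148/miR-152 family had sites on Nras peak 1 (8 bases), Sos2 (7 bases) and Shoc2 (6 bases), which is 23.1% of the peaks against 2.90% of all annotated peaks, and all 3 peaks were also annotated for miR-130/miR-301. The miR-17/miR-20 family, encoded in part by an oncogenic cluster, had sites on Rasa2 peak 1 (8 bases), Shoc2 and Rras2 (7 bases each), against 6.74% of all annotated peaks. The let-7 family had 7-base sites on Nras peak 2 and Ptpn11 (15.4% of the 13 peaks, against 11.2%), and the epithelial miR-200/miR-429 family had 8-base sites on Sos1 and Rasa2 peak 2 (15.4%, against 531 of the 7585 annotated peaks). These shares rest on 2 to 4 peaks, were not tested and are a description of the annotation.

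**Figure D1:**
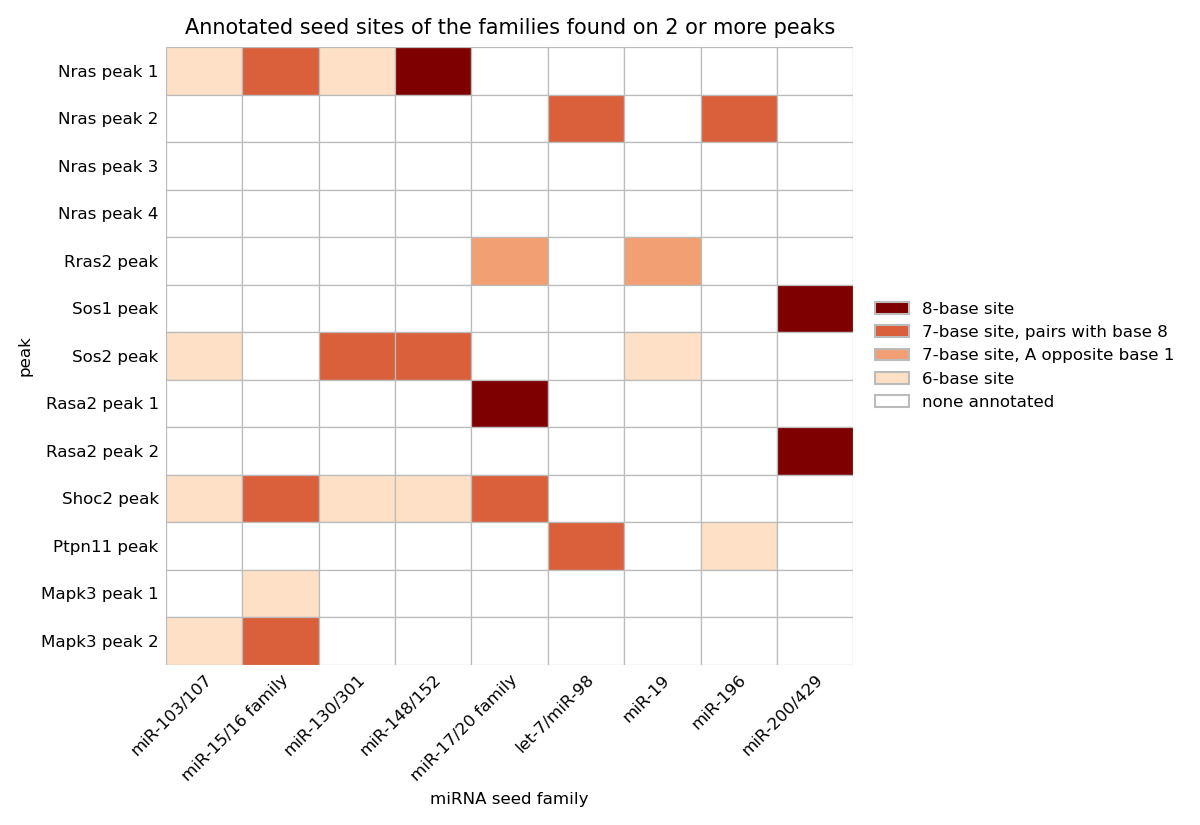
Rows are the 13 peaks, columns are the 9 seed families annotated on 2 or more of them, and darker squares are longer sites. Nras peak 1 and Sos2 carry sites of 4 of these families each and Shoc2 of 5, while Nras peaks 3 and 4 carry none of them.

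Nras, the gene with the most peaks, has 4 in its 3' UTR on chromosome 3, plus strand (mm10, the build named in the submitters' processing notes). Peak 1 is at chr3:103064233-103064293 and peak 2 at chr3:103064363-103064430, 69 bases further on. Peak 3 is at chr3:103066443-103066490 and peak 4 at chr3:103067696-103067757, which ends 157 bases before the 3' end of the gene. Peak 4 carries 7-base sites for miR-192/miR-215 and miR-21-3p, and peak 3 only 6-base sites, for miR-18 and miR-190. Rras2, which encodes a Ras-related GTPase, has 1 peak at chr7:114046853-114046906 (minus strand, 3' UTR), 71 bases from the 3' end of the gene.

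The Sos1 peak is exonic at chr17:80453855-80453902 (minus strand), and the Sos2 peak is in the 3' UTR at chr12:69584642-69584750 (minus strand), in a stretch that the annotation also gives to Vcpkmt. Rasa2 has 2 peaks in its 3' UTR, peak 1 at chr9:96541536-96541594 and peak 2 at chr9:96541256-96541325 (minus strand), 210 bases apart. The Shoc2 peak is at chr19:54032367-54032422 (plus strand, 3' UTR), and the Ptpn11 peak is exonic at chr5:121167848-121167894 (minus strand). Mapk3 has an exonic peak 1 at chr7:126763036-126763092 and a 3' UTR peak 2 at chr7:126765408-126765470 (plus strand), and the annotation also gives peak 2 to Gdpd3. In the authors' peak lists, made once per genotype, 12 of the 13 peaks overlap an entry of the G12D list of 7569 peaks and 3 overlap one of the WT list of 2186 peaks. Sos1 is the 1 peak found in the WT list alone, and Nras peak 4 and Shoc2 are in both lists.

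Signal is given as the deposited normalised count divided by a factor for each library estimated on all peaks, so that a value is relative to all peaks of its library and has no unit of its own. Recovered reads in peaks numbered 125384 to 974013 in 10 of the 12 mRNA libraries, but 30607 in WT replicate 5 and 57037 in WT replicate 6, where 59.8% and 34.0% of all peaks had no read. A single read is worth 14.2 and 5.89 relative units in these 2 libraries, against 0.267 to 2.26 in the other 10, and the fold change of each of the 13 peaks between genotypes is also given without them. Of the 13 peaks, 9 had no read in WT replicate 5 and 4 had none in WT replicate 6. A count of 0 in WT replicate 5 allows a value of up to 42.7 (3 reads), more than 7 of the 13 peaks had in any library, and such limits cover counting error only. Peaks lay on 11 of 15 colon epithelium markers, 0 of 12 leukocyte, 3 of 11 fibroblast and smooth muscle and 1 of 10 endothelium and nerve markers; the summed fibroblast and smooth muscle signal was 155 to 529 in G12D libraries and 56.9 to 445 in WT libraries, and its part in the results was not tested. A peak's value combines the amount of the RNA with its binding to Ago2, and in a whole tumour fewer cells of a type and less RNA per cell cannot be told apart.

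Per 100 bases of peak, over the 10 deeper libraries, Shoc2 had the highest signal (102 ± 53.8, SD, n = 10), followed by Nras peak 4 (74.7 ± 15.9), Rasa2 peak 1 (67.0 ± 45.7), Mapk3 peak 1 (49.6 ± 44.6) and Nras peak 2 (36.5 ± 19.8). The SDs of these neighbours overlap. The remaining 8 peaks had 11.3 to 22.4 per 100 bases, with Sos2 (11.7 ± 4.62) and Sos1 (11.3 ± 8.22) lowest. Among all 7730 peaks the mean signal over the same 10 libraries stood at percentile 87.5 for Shoc2 and 84.2 for Nras peak 4, while Ptpn11 stood at percentile 8.27 and Sos1 at 3.95. Over all 12 libraries Sos1 stood at percentile 74.4, with 93.8 and 96.5 in WT replicates 5 and 6. Single libraries ranged widely, from percentile 2.93 to 73.8 for Nras peak 3. Mapk3 peak 2 and Nras peak 4 varied little between the 10 libraries (coefficient of variation 16.2% and 21.3%, against a median of 54.4% over all tested peaks), and 0.201% and 1.39% of tested peaks varied less. Nras peak 3 and Mapk3 peak 1 varied most of the 13 (99.8% and 89.8%).

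The main comparison asked whether Ago2 occupancy of these transcripts differed with the K-Ras-G12D allele. On the scale relative to the library none of the 13 peaks and none of the 8 summed genes passed the limma test at an adjusted p of 0.05. Nor did any of the 7465 peaks tested (0% called, with 748 at an unadjusted p under 0.05) or of the 3873 genes (0% called, 428 at an unadjusted p under 0.05). Of the count tests on the recovered reads, edgeR called 15 of the 7465 peaks (0.201%). DESeq2 called 117 peaks, 2.49% of the 4694 to which it gave an adjusted p. Neither called 1 of the 13, but DESeq2 gave no adjusted p for Rras2, Sos2, Ptpn11 and some of the Nras and Mapk3 peaks. These peaks could not be called by DESeq2. Their unadjusted DESeq2 p-values were 0.122 (Nras peak 3) to 0.951 (Rras2), with 0.157 for Sos2. The median log2 fold change, G12D over WT, was 0.55 over the 13 peaks and 0.54 over all tested peaks, so the fold change of each peak below is also given as its distance from the median of all. Without WT replicates 5 and 6 the median of all tested peaks was -0.013 and limma called 5 peaks (0.067%), none of them among the 13.

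Nras peak 4 is the clearest of the Ras peaks, as it had reads in every library. It had 63.3, 55.1, 54.1, 40.0, 32.6 and 40.4 in G12D replicates 1 to 6, against 46.3, 51.5, 46.2, 33.6, 42.7 and 53.0 in WT replicates 1 to 6. The ranges overlap, with G12D libraries at both ends, and the means were 47.6 ± 11.7 in G12D and 45.6 ± 6.97 in WT (SD, n = 6 each). The log2 fold change was 0.041 (SE 0.35, limma adjusted p = 0.960), at -0.50 from the median of all peaks, and 0.22 without WT replicates 5 and 6.

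Of the other Nras peaks, peak 2 ran with peak 4 over the 10 deeper libraries (Pearson r = 0.77, Spearman rho = 0.70, as a description), and peaks 1 and 3 did not (r = -0.049 and -0.071). These correlations were not adjusted for batch. The G12D means in batch 2 and batch 1 were 12.1 and 37.3 at peak 2, and 37.7 and 57.5 at peak 4. Peak 1, with the 8-base miR-148/miR-152 site, had 4.51 to 12.7 in G12D libraries (median 11.7) and 0 to 23.5 in WT libraries (median 11.5). Peak 2, with the let-7 site, had 9.59 to 45.3 in G12D (median 20.7) and 0 to 38.3 in WT (median 15.3). Peak 3 had 2.53 to 29.3 in G12D (median 7.43) and 0 to 8.09 in WT (median 2.64), with no read in 3 WT libraries. All 3 pairs of ranges overlap. The log2 fold change of peak 1 was 0.28 (SE 0.71, limma adjusted p = 0.853), at -0.26 from the median of all peaks, and -0.20 without WT replicates 5 and 6. That of peak 2 was 0.78 (SE 0.65, limma adjusted p = 0.607), at 0.23 from the median, and 0.16 without WT replicates 5 and 6. Peak 3 had the largest positive fold change of the 13, 1.72 on the log2 scale (SE 0.82, limma adjusted p = 0.494), at 1.18 from the median, and 0.80 without WT replicates 5 and 6. It rested on 29.3 and 19.6 in G12D replicates 3 and 4, while G12D replicates 1 and 2 had 2.68 and 2.53, below 3 of the 6 WT libraries. Across the 10 deeper libraries peak 3 ran against peak 1 (Pearson r = -0.83, Spearman rho = -0.66), a description over libraries that share their depth and scaling. Of these libraries, G12D replicate 3 had both the lowest peak 1 value (4.51, from 2 reads) and the highest peak 3 value (29.3, from 13 reads). The part of this library in the correlation was not tested. By rank, peak 3 also ran against peak 2 (Spearman rho = -0.70, Pearson r = -0.41). Peaks 1 and 2, although 69 bases apart, had r = 0.035. Summed over its 4 peaks, Nras had 94.2 ± 24.5 in G12D and 79.0 ± 20.9 in WT (SD, n = 6 each). The log2 fold change of the sum was 0.26 (SE 0.27, limma adjusted p = 0.635), at -0.22 from the median of all genes. Without WT replicates 5 and 6 it was 0.25, where the median of all genes was 0.039.

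The Rras2 peak had 19.6, 16.5, 2.26, 6.12, 11.2 and 9.59 in G12D replicates 1 to 6, against 9.56, 14.4, 19.8, 10.02, 0 and 11.8 in WT replicates 1 to 6. The highest values of the 2 genotypes were nearly equal, and the lowest G12D value rests on 1 read. The means were 10.9 ± 6.41 in G12D and 10.9 ± 6.54 in WT (SD, n = 6 each), with a log2 fold change of 0.20 (SE 0.72, limma adjusted p = 0.900), at -0.35 from the median of all peaks. The sign turned without WT replicates 5 and 6 (-0.40, SE 0.51).

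**Figure D2:**
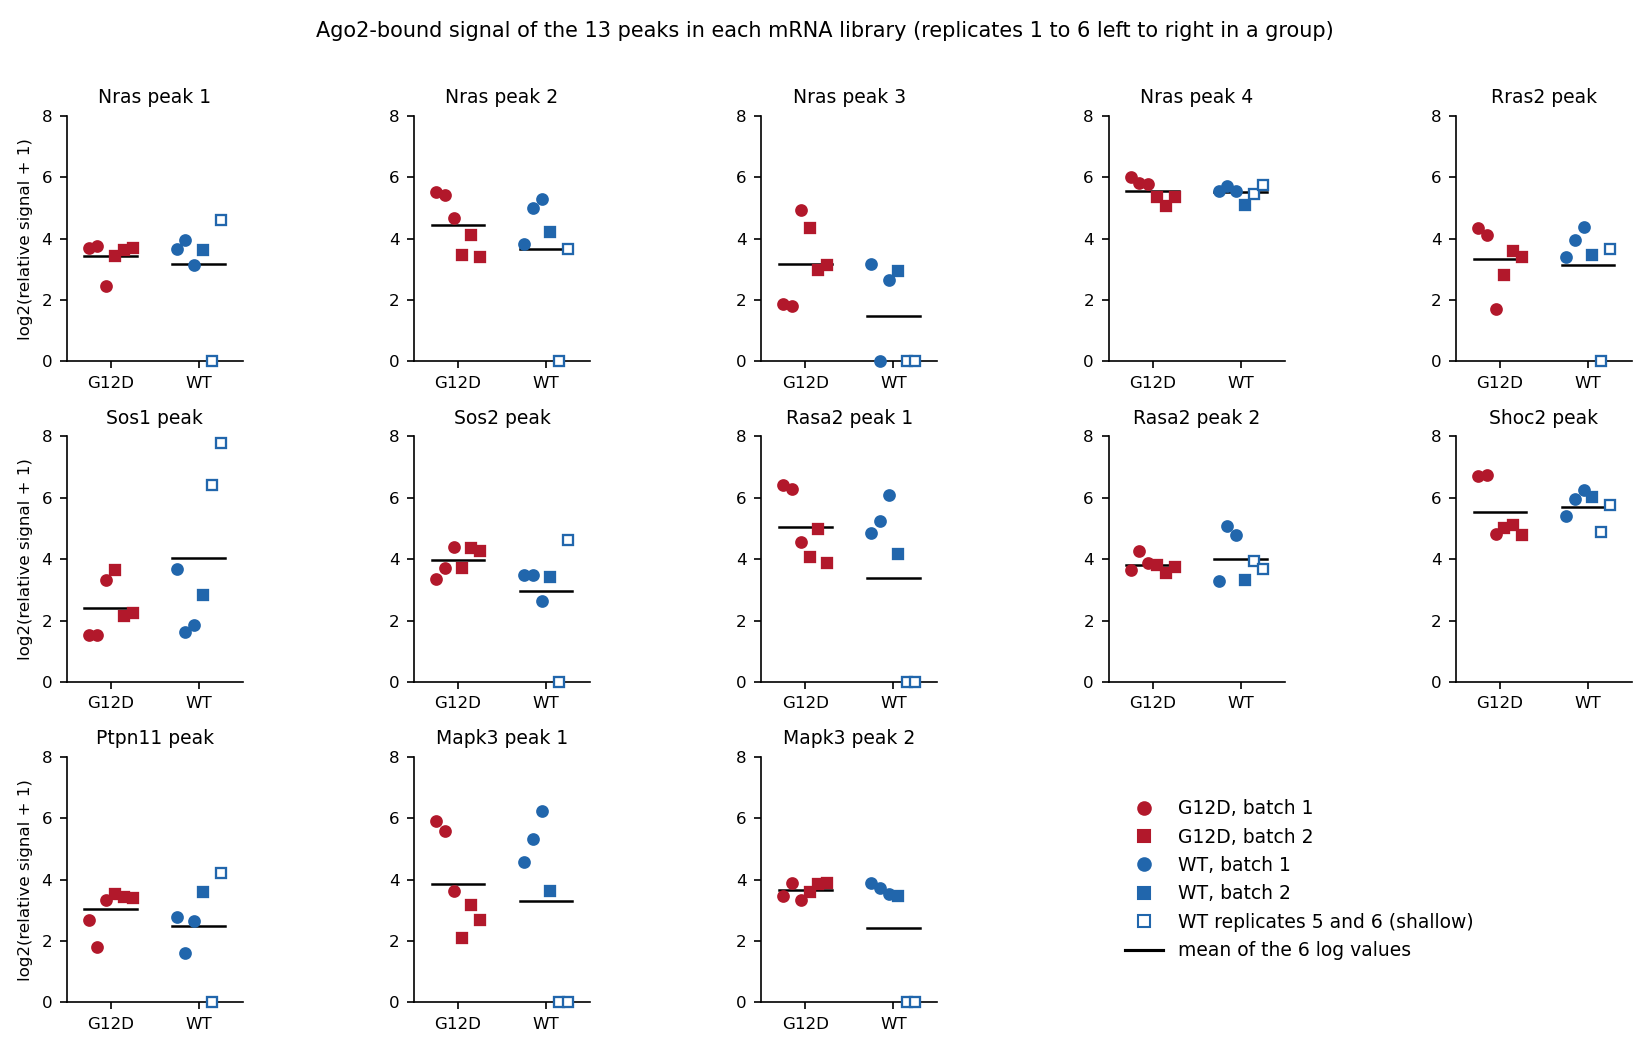
Each panel is 1 peak, and each point is 1 mRNA library, as log2(relative signal + 1), with G12D left and WT right, circles for batch 1, squares for batch 2, open squares for the shallow WT replicates 5 and 6, and bars for the mean of the log values. The points of G12D and WT overlap in all 13 panels, and the 2 highest Sos1 points are WT replicates 5 and 6.

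Of the 2 exchange factors, Sos2 holds the 1 peak of the 13 that the authors' deposited table calls. It gives Sos2 a log2 fold change of 1.36 (adjusted p = 0.0316) in a table that calls 10.3% of the peaks with an adjusted p, 755 of 782 of them higher in G12D, and that has a median log2 fold change of 0.85 over all peaks. Relative to the library, Sos2 had 9.21, 12.0, 20.3, 12.2, 19.8 and 18.3 in G12D replicates 1 to 6, against 10.3, 10.3, 5.28, 9.70, 0 and 23.5 in WT replicates 1 to 6. In 5 of the 6 G12D libraries Sos2 was above 5 of the 6 WT libraries, but the highest value of all was WT replicate 6, with 4 reads. The means were 15.3 ± 4.72 in G12D and 9.86 ± 7.82 in WT (SD, n = 6 each), and 8.90 ± 2.43 in WT without replicates 5 and 6. The log2 fold change was 1.03 (SE 0.69, limma adjusted p = 0.541), 0.48 above the median of all tested peaks, and 0.64 (SE 0.35, adjusted p = 0.739) without WT replicates 5 and 6.

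On the deposited scale the median of all 7527 tested peaks was 1.33 in limma, and none was called (0%, with 2713 at an unadjusted p under 0.05), Sos2 included (1.79, SE 0.71, adjusted p = 0.113). With the deposited size factors kept, DESeq2 called 10.5% of peaks and Sos2 alone of the 13 (1.36, adjusted p = 0.0315), which was 0.50 above that fit's median. The same was so with limma's library quality weights (11.3% of peaks called; Sos2 1.14, adjusted p = 0.0250), and without WT replicate 4 limma called 45.3% of peaks and 5 of the 13. Sos2 lay 0.16 to 0.94 above the median of all peaks in the relative fits that leave out 1 replicate.

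The Sos1 peak had 1.92, 1.90, 9.02, 11.4, 3.48 and 3.75 in G12D replicates 1 to 6, against 11.8, 2.06, 2.64, 6.14, 85.3 and 218 in WT replicates 1 to 6. The 2 high values are the 2 shallow WT libraries, with 6 and 37 reads, and the other 10 libraries overlap. The means were 5.25 ± 4.00 in G12D and 54.3 ± 86.3 in WT (SD, n = 6 each), but 5.65 ± 4.46 in WT without replicates 5 and 6. The log2 fold change was -1.62 (SE 0.84, limma adjusted p = 0.494), at -2.17 from the median of all peaks, and -0.22 (SE 0.64) without those 2 libraries. On the recovered reads of all 12 libraries it was -2.50 in DESeq2 (adjusted p = 0.0941) and -2.79 in edgeR (adjusted p = 0.243). With limma's library quality weights it was -0.52 (adjusted p = 0.609). The authors' deposited table gives -1.12 (adjusted p = 0.182).

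Rasa2, which opposes Sos1 and Sos2, has its main signal in peak 1, the peak with the 8-base miR-17/miR-20 site. It had 85.5, 77.3, 22.6, 15.9, 30.5 and 13.8 in G12D replicates 1 to 6, against 28.0, 37.1, 67.4, 17.1, 0 and 0 in WT replicates 1 to 6. The 2 highest values are G12D libraries of batch 1 and the 2 values of 0 are the shallow WT libraries, with the rest overlapping. The means were 40.9 ± 32.0 in G12D and 24.9 ± 25.5 in WT (SD, n = 6 each), and the log2 fold change of 1.64 (SE 0.75, limma adjusted p = 0.494), at 1.098 from the median, compares with 0.28 (SE 0.43) without WT replicates 5 and 6. Peak 2, with the miR-200/miR-429 site, had 10.7 to 18.4 in G12D (median 12.8) and 8.83 to 33.0 in WT (median 12.998), within which the G12D libraries lie entirely. Its log2 fold change was -0.20 (SE 0.48, limma adjusted p = 0.847), at -0.74 from the median, and -0.18 without WT replicates 5 and 6.

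Shoc2 had 104, 105, 27.1, 31.4, 33.9 and 26.7 in G12D replicates 1 to 6, against 41.2, 61.8, 75.3, 63.7, 28.4 and 53.0 in WT replicates 1 to 6. G12D replicates 1 and 2 were above every WT library, and the other 4 G12D libraries were below 5 of the 6 WT libraries. The means were 54.7 ± 38.7 in G12D and 53.9 ± 16.9 in WT (SD, n = 6 each), with a log2 fold change of -0.18 (SE 0.44, limma adjusted p = 0.849), at -0.72 from the median, and -0.21 without WT replicates 5 and 6. The Ptpn11 peak, with the let-7 site, had 5.37, 2.53, 9.02, 10.6, 9.89 and 9.59 in G12D replicates 1 to 6, against 5.89, 2.06, 5.28, 10.99, 0 and 17.7 in WT replicates 1 to 6. The ranges overlap, with a log2 fold change of 0.56 (SE 0.70, limma adjusted p = 0.709), 0.016 above the median of all peaks, and 0.13 (SE 0.45) without WT replicates 5 and 6.

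For Mapk3, peak 1 had 59.5, 46.9, 11.3, 3.26, 8.02 and 5.42 in G12D replicates 1 to 6, against 22.8, 39.2, 75.3, 11.3, 0 and 0 in WT replicates 1 to 6. Each genotype held both low and high libraries, and WT replicate 3 was highest. The means were 22.4 ± 24.3 in G12D and 24.8 ± 28.9 in WT (SD, n = 6 each), and the log2 fold change was 0.55 (SE 0.72, limma adjusted p = 0.721), at the median of all peaks, but -0.55 (SE 0.50) without WT replicates 5 and 6. Peak 2, with the 7-base miR-15/miR-16 site, had 9.02 to 13.9 in G12D (median 12.3) and 10.02 to 13.98 in the 4 WT libraries other than replicates 5 and 6, which had no read. Its log2 fold change was 1.23 (SE 0.72, limma adjusted p = 0.510), at 0.69 from the median, and -0.0041 without WT replicates 5 and 6. Peaks 1 and 2 of Mapk3 did not move together over the 10 deeper libraries (Pearson r = -0.15), nor did those of Rasa2 closely (r = 0.32).

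**Figure D3:**
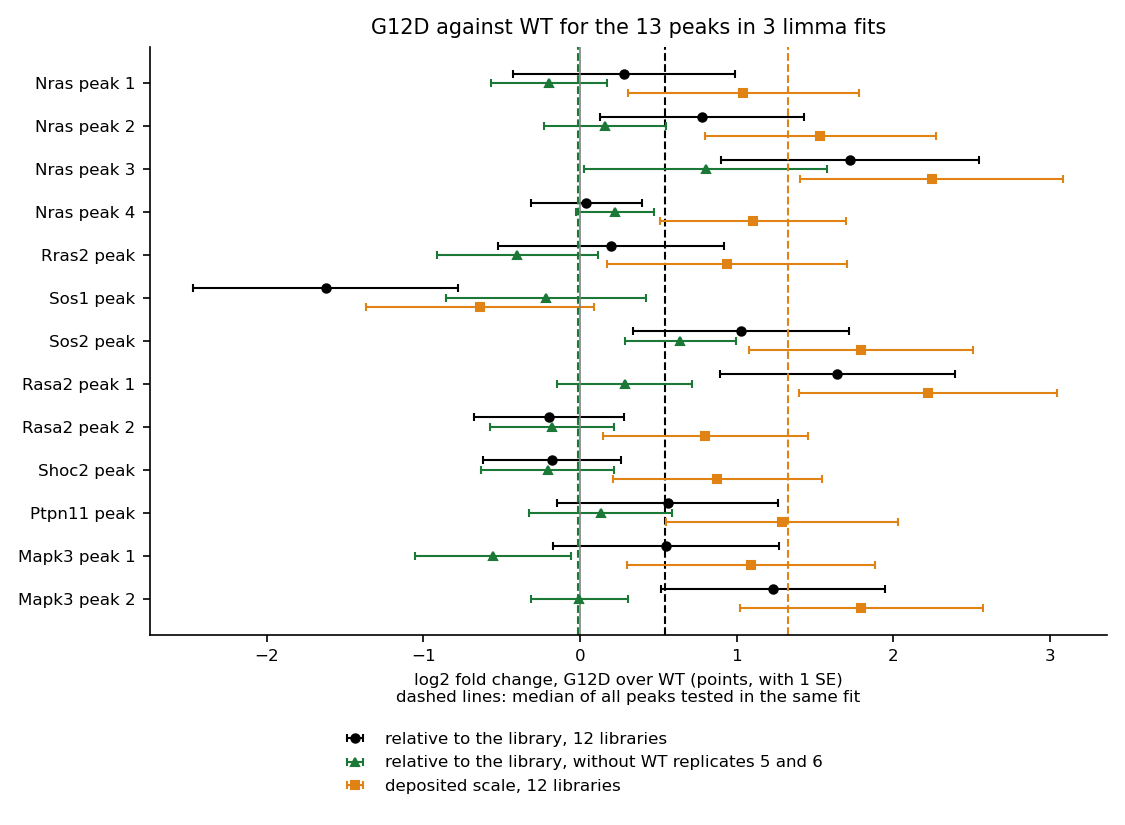
Points are log2 fold changes of G12D over WT with 1 SE for the 13 peaks in 3 limma fits, and dashed lines are the medians of all peaks tested in each fit (0.54, -0.013 and 1.33). Without WT replicates 5 and 6 Sos1 lies at -0.22 and Rasa2 peak 1 at 0.28, against -1.62 and 1.64 in all 12 libraries, and the deposited scale moves all 13 peaks to the right.

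The peaks were also compared between the batches, a comparison added after the values were seen. At Mapk3 peak 1 the 3 G12D libraries of batch 2 had 3.26, 8.02 and 5.42, against 59.5, 46.9 and 11.3 in batch 1. The 3 WT libraries of batch 2 had 11.3, 0 and 0, against 22.8, 39.2 and 75.3 in batch 1. No batch 2 value exceeded a batch 1 value of the same genotype. The batch coefficient of the limma fit, batch 2 over batch 1, was -3.28 for Mapk3 peak 1 (SE 0.72, adjusted p = 0.00599), at -2.61 from the median of all peaks of -0.67. For Rasa2 peak 1 it was -2.73 (SE 0.75, adjusted p = 0.0173). These were 2 of the 13 peaks, while 23.3% of all 7465 peaks were called (1742, of which 321 were higher in batch 2), so the share among the 13 was not above that of all peaks.

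Without WT replicates 5 and 6, both in batch 2, the batch coefficient remained past the threshold for Mapk3 peak 1 (-2.18, limma adjusted p = 0.00855) and Rasa2 peak 1 (-1.37, adjusted p = 0.0325), and Nras peak 2 was called as well (-1.19, adjusted p = 0.0367), with 28.2% of all peaks called. In the G12D libraries alone, where 12.5% of all peaks were called, it was -2.39 for Mapk3 peak 1 (adjusted p = 0.0407), -1.54 for Nras peak 2 (adjusted p = 0.0424) and -1.45 for Rasa2 peak 1 (adjusted p = 0.106). The Rasa2 call was also lost without WT replicate 2 or 3 (adjusted p = 0.0508 and 0.0568) and on the deposited scale (adjusted p = 0.104). G12D replicate 3, of batch 1, lay closer to the batch 2 libraries at several peaks. It had 27.1 at Shoc2, where G12D replicates 1 and 2 had 104 and 105 and the batch 2 G12D libraries had 26.7 to 33.9, and it was also the shallowest G12D library, with 125384 reads in peaks. The part of depth in this was not tested. Mapk3 peak 2, on the same transcript as the called peak 1, had 11.01 to 13.8 in batch 2 and 9.02 to 13.9 in batch 1 among G12D libraries. A difference of the genotype effect between batches was tested by an interaction term, which passed for none of 7465 peaks in limma (575 at an unadjusted p under 0.05).

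The miRNAs of the 9 families were measured in the miRNA libraries with the same replicate numbers, in deposited normalised counts, with 289462 to 471587 recovered reads in each. In limma 11 of 284 miRNAs were called between genotypes (3.87%), and none was the leading miRNA of one of the 9 families. The nearest of the 9 was miR-148a-3p, whose family has sites on Nras peak 1, Sos2 and Shoc2. It had 343 to 469 normalised counts in G12D libraries (median 414) and 438 to 668 in WT libraries (median 540). The ranges overlap only between 438 and 469, and the log2 fold change was -0.38 (SE 0.13, limma adjusted p = 0.114). DESeq2 on the recovered reads called it (-0.40, adjusted p = 0.0283), as it did 9.93% of the 282 miRNAs with an adjusted p. edgeR did not call it (adjusted p = 0.103, with 4.93% of miRNAs called).

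miR-301a-3p, whose seed overlaps that of miR-148a, had 237 to 341 normalised counts in G12D (median 283) and 114 to 271 in WT (median 226), with a log2 fold change of 0.52 (SE 0.20, limma adjusted p = 0.181). The lowest 2 of its WT values, 142 and 114, were those of replicates 5 and 6, without which the log2 fold change was 0.22. miR-103-3p had a log2 fold change of 0.36 (SE 0.16, limma adjusted p = 0.244), and 0.12 without WT replicates 5 and 6. The other 6 leading miRNAs had log2 fold changes between -0.08 for miR-16-5p and 0.07 for miR-20a-5p. They include the most abundant of the 9, miR-200c-3p, with 14272 ± 3463 normalised counts in G12D and 14828 ± 2183 in WT (SD, n = 6 each), second of 596 miRNAs, and let-7i-5p, with 5502 ± 554 in G12D and 5630 ± 504 in WT. miR-200c-3p was lower in all 6 batch 2 tumours, with 11188 to 11828 in G12D and 12504 to 13968 in WT, than in batch 1, with 15500 to 19852 in G12D and 15589 to 18023 in WT.

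Among all miRNAs of the 24 families with a site on any of the 13 peaks, 57 were tested and 2 were called. Over all miRNAs 11 of 284 were called (3.87%), so the share among the 57 was not above that of all. The 2, miR-33-5p and miR-193a-3p, were both higher in G12D. They were looked up after the values were seen. miR-33-5p, whose family has a 6-base site on Shoc2, had 715, 570.1, 572, 649, 498 and 613 normalised counts in G12D replicates 1 to 6, against 439.6, 382, 503, 368, 378 and 348 in WT replicates 1 to 6. The groups overlap only through G12D replicate 5 and WT replicate 3, and the log2 fold change was 0.58 (SE 0.12, limma adjusted p = 0.0165). The adjusted p was 0.0505 without G12D replicate 6 and 0.0534 with a replicate block in place of batch. miR-193a-3p, whose family has an 8-base site on Sos2, had 98.5, 34.6, 69.7, 114, 117 and 187 in G12D replicates 1 to 6, against 55.6, 42.0, 30.9, 35.4, 30.5 and 35.4 in WT replicates 1 to 6. All G12D libraries but replicate 2 lay above every WT library, with a log2 fold change of 1.27 (SE 0.32, limma adjusted p = 0.0444). That call held without G12D replicate 2 or WT replicate 1, and was lost when any of the other 10 libraries was left out (adjusted p 0.0512 to 0.106) with a replicate block (adjusted p = 0.0589), with library quality weights (adjusted p = 0.0620) and with no filter on low values (adjusted p = 0.0542). The leading miRNA of that family, miR-193b-3p, was not called (0.43, SE 0.29, limma adjusted p = 0.486).

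**Figure D4:**
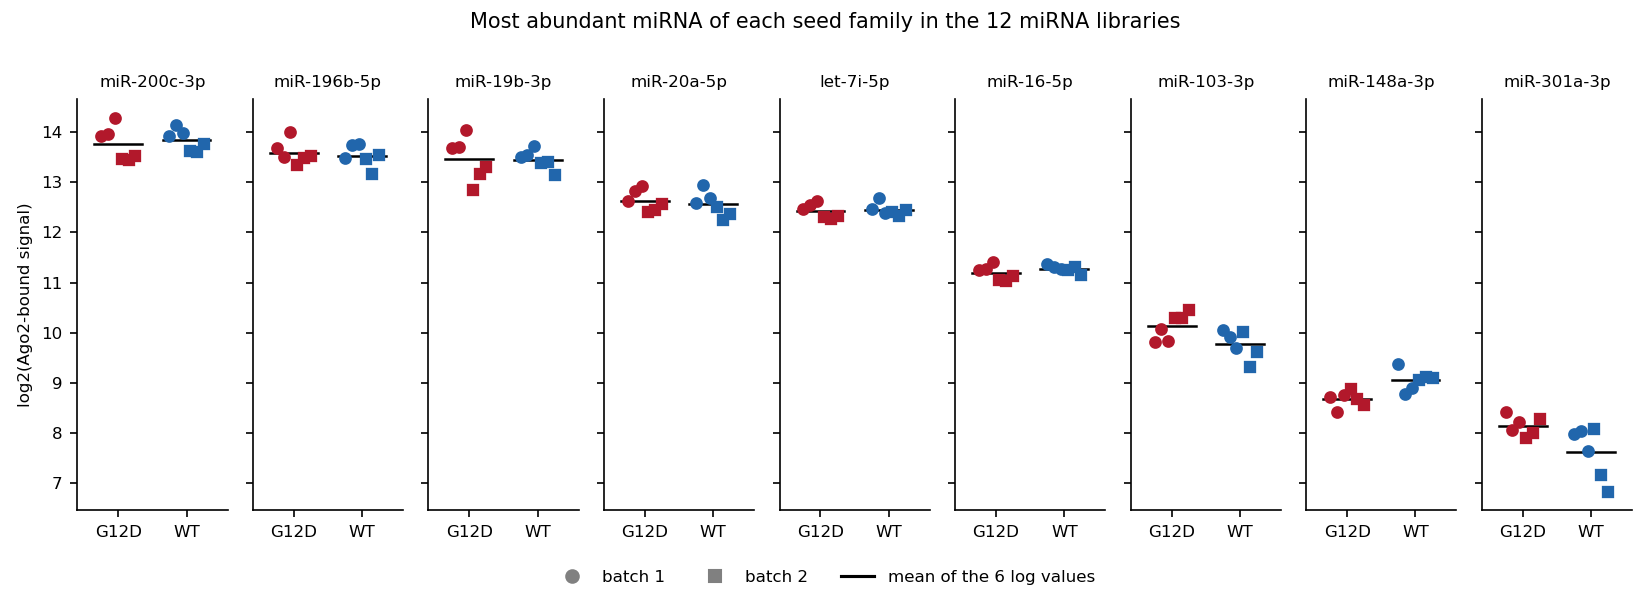
Each point is the log2 deposited normalised count of 1 miRNA in 1 miRNA library, for the leading miRNA of each of the 9 seed families, with G12D left and WT right, circles for batch 1, squares for batch 2 and bars for the mean of the log values. For miR-148a-3p all but 1 of the 6 G12D points lie below every WT point, and for miR-200c-3p the batch 2 points lie below the batch 1 points.

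Of 54 other Ras and ERK pathway genes, 16 had a peak, among them the GTPases Rap1a and Rap1b, the scaffold Ksr1, the adaptors Gab1, Frs2, Irs2 and Crk, and the ubiquitin ligases Cbl and Cblb. None of the 16 passed the limma test of summed signal between genotypes in either direction (0% of all genes called), and their median log2 fold change was 0.55, against 0.39 over the 8 genes described here and 0.48 over all 3873 genes.

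Among 606 other genes with a mean summed signal of at least 100, those whose signal ran most like the mean of the 8 genes over the 12 libraries were Sik1 (Spearman rho = 0.94), Actn1 (0.93), Znfx1 (0.93), Etf1 (0.92) and Ep300 (0.91). The median rho over the 606 genes was 0.29. These libraries share their batches and depths, and without WT replicates 5 and 6 the 5 values were 0.87 to 0.94.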

How the data were processed

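The 36 libraries are miRNA, mRNA and input-control libraries of 12 tumours, and values of the miRNA and mRNA libraries were used here. Same-numbered libraries of a genotype were taken as the same tumour, which the sample titles do not state. The deposited signal tables cover 596 miRNAs and 7730 peaks, and each value is a read count over a library-wide size factor set by the authors. Peak columns carry no library type and were treated as mRNA libraries. Every value is a whole multiple of 1 read within a tolerance of 0.001 (100% of values), so reads were recovered for count tests. The authors' own log2 fold changes and p-values, as deposited, are named as theirs wherever printed. Each entry of the deposited peak lists has a score of unstated unit per the file headers, and only presence in a list was used. STAR 2.5.2b, DESeq2, mm10 and GRCm38 stand in the submitters' processing notes, and no source used here names the peak caller.

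Deposited peak values were divided by a median-of-ratios factor over the 2398 peaks above 0 in all libraries. limma 3.58.1 (R 4.3.3, trend) was fitted to log2(value + 1), batch being the covariate. Peaks and genes needed a mean of 5 or more and miRNAs of 10 or more, and p-values were adjusted by Benjamini-Hochberg over all features tested, with calls at 0.05. The added 1 shrinks fold changes of low peaks. edgeR 4.0.16 (quasi-likelihood) and DESeq2 1.42.0 were run on the recovered reads. The steps were tested on simulated data. Tests were two-sided. Reads from near-identical genes could be split by the counting. The labels list replicates as separate samples without saying that they are separate animals, and the p-values then measure the spread between these samples.

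The named values were chosen by rule: all 8 genes, each library for the peak of highest mean of each gene, other pathway genes by count (the gene of highest mean, which the rule also names, is not reported here), families on 2 or more of the 13 peaks with their most abundant miRNA, and the 5 genes most alike. The peak values by batch and the 2 called miRNAs of other families were added after the values were seen. The genes and lists were chosen with earlier results of these data known. Sequences under the peaks were not analysed here.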

Additional observations from a re-analysis of the deposited data

Results flagged for a closer look

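Among the 48 groups of 6 libraries examined (the 13 peaks, the 9 leading miRNAs and the 2 called miRNAs in each genotype), 3 held a library whose gap to its nearest neighbour was large for the range of its group, where chance alone flags about 1 in 20. At Nras peak 1, G12D replicate 3 had 4.51, from 2 reads, against 9.79 to 12.7 in the other 5 G12D libraries. At Rasa2 peak 2, G12D replicate 2 had 18.4, against 10.7 to 13.5 in the other 5. For let-7i-5p, WT replicate 2 had 6596 normalised counts, against 5149 to 5638 in the other 5 WT libraries.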

How the results depend on the processing

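The relative-scale limma count of 0 peaks became 4 with a pseudocount of 5, 15 with edgeR, 117 with DESeq2, 76 with library quality weights, 5 without WT replicates 5 and 6 and 8 with edgeR without them, and stayed 0 with each replicate left out. On the deposited scale 0 became 513 with a pseudocount of 5, 10 with edgeR, 119 with DESeq2 and its own factors, 789 with DESeq2 and the deposited factors, 853 with weights, 3 without WT replicates 5 and 6, 1 with edgeR without them and 258 in batch 2 alone. With 1 replicate left out the deposited-scale count was 0 to 3404, and 0 to 5 of the 13 peaks were called, the higher values without WT replicate 4. Of the 13, DESeq2 with deposited factors and the weights called 1 each, Sos2. For genes 0 became 12 with edgeR, 86 with DESeq2, 57 with weights, 5 without WT replicates 5 and 6, 7 with edgeR without them, and 0 to 8 with 1 replicate left out. The 11 miRNAs became 28 and 27 with DESeq2 (own and deposited factors), 17 with weights, 6 with no batch term, 3 in batch 1 alone, 0 in batch 2 alone (42 at an unadjusted p under 0.05 in limma), and 5 to 16 with 1 replicate left out. The 1742 peaks that differed between batches became 678 on the deposited scale, 990 with a mean of at least 20, 936 in the G12D libraries alone and 834 to 2384 with 1 replicate left out. The cause of these shifts was not tested.

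Same-numbered libraries of the 2 genotypes did not deviate together (correlations -0.51 to 0.30, over 0.1 in 1 of 6 pairs). The numbers were therefore treated as naming samples only, although 3 libraries per genotype and batch cannot show that no pairing exists. A replicate block in place of batch called 6 miRNAs, 0 peaks and 0 genes.

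In the relative-scale comparison and its changed settings, directions relative to the median of all tested peaks turned for 8 of the 13 peaks, none of them called. Nras peak 1 (-0.26) was 0.19 with weights and -0.61 to 0.16 with 1 replicate left out. Nras peak 2 (0.23) was -0.064 in batch 2 alone and -0.059 to 0.50 with 1 replicate left out. Nras peak 4 (-0.50) was 0.081 with DESeq2, 0.17 with weights, 0.23 without WT replicates 5 and 6, 0.21 with edgeR without them and 0.27 in batch 1 alone. Rras2 (-0.35) was -0.63 to 0.014 with 1 replicate left out. Mapk3 peak 1 (0.01) was -0.24 on the deposited scale, -0.048 with scaling to total reads, -0.17 with a pseudocount of 5, -0.36 with edgeR, -0.35 with DESeq2, -0.33 with weights, -0.54 without WT replicates 5 and 6, -0.46 with edgeR without them, -0.33 in batch 1 alone and -0.29 to 0.33 with 1 replicate left out. Mapk3 peak 2 (0.69) was -0.15 in batch 1 alone. Shoc2 (-0.72) was 0.15 with weights and 0.23 in batch 1 alone. Ptpn11 (0.016) was -0.040 on the deposited scale, -0.0013 with TMM, -0.011 with scaling to total reads, -0.040 with a pseudocount of 5, -0.12 with edgeR, -0.16 with DESeq2, -0.29 with weights, -0.040 with edgeR without WT replicates 5 and 6, -0.25 in batch 2 alone and -0.28 to 0.41 with 1 replicate left out. Nras peak 3 (1.18), not among the 8, was 0.087 with weights. With weights on the deposited scale Nras peak 3 lay at -0.12 from the median, against 0.92 in the main fit of that scale. Among miRNAs let-7i-5p (-0.03) was 0.029 and miR-200c-3p (-0.08) was 0.035 in batch 1 alone, miR-196b-5p (0.06) was -0.0081 with weights, and miR-19b-3p (0.01) was -0.023 with weights, -0.20 in batch 2 alone and -0.067 to 0.090 with 1 replicate left out.

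WT replicates 5 and 6 have few reads, and 9 and 4 of the 13 peaks are at 0 there, so a fold change that rests on them is uncertain. Mapk3 peak 1 in batch 2 alone and Sos1 in batch 1 alone fell under the filter on low values and have no value.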
